A study of Mus musculus with 12 samples.

Results

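The UDP-glucuronosyltransferases (UGT) and the cytosolic sulfotransferases (SULT) of mouse liver were taken as the rows of the Ribo-seq table whose symbol is Ugt1, Ugt2, Ugt3 or Sult followed by a subfamily number or letter and a gene number. There were 41 such genes among 25033 rows, 20 UGT and 21 SULT. In Ribo-seq, RNA is digested and only the pieces covered by a ribosome, its footprints, are sequenced and counted for each gene. The livers were of male C57BL/6 mice aged 16 weeks, which from week 8 received a high-fat diet (HFD, n = 3 libraries) or the high-fat diet with lycopene (LYC, n = 3 libraries) for 8 weeks. Lycopene is the red carotenoid of tomatoes. Both groups were thus on the high-fat diet, and the comparison asks what lycopene added to that diet did to the footprints. The treatment label of the LYC mice names the high-fat diet alone, so their lycopene feed is known from the sample titles and the study's methods. The labels also say that RNA or footprints were pooled before library construction, and no label ties a library to a single animal, so p-values measure the spread between these libraries.

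UGT enzymes sit in the membrane of the endoplasmic reticulum and attach glucuronic acid, taken from UDP-glucuronate, to bilirubin, steroids, bile acids, drugs and plant compounds. SULT enzymes work in the cytosol and attach a sulfonate group, taken from the donor PAPS, to phenols, catecholamines, thyroid hormones, steroids and bile acids. Both reactions make small molecules more soluble in water and ready for export into bile or blood, and the liver is the main site of both.

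Depth differed between the groups. The library totals recovered from the deposited RPKM (reads scaled to the length of the gene and the reads of the library) were 834410 to 4405541 reads in HFD and 311050 to 412116 reads in LYC, with a median 6.91 times higher in HFD. A single read on 1 kb of gene equalled 0.227 to 1.20 RPKM in HFD but 2.43 to 3.21 RPKM in LYC, so low genes were measured less finely in LYC. Hepatocyte markers dominated every library, with a summed level of 37935 to 42035 RPKM in HFD and 27161 to 34804 RPKM in LYC for the 8 genes listed (albumin, Apoa1, Apob, Ttr, Tat, Cps1, Hnf4a and Fga). Of these, Tat and Cps1 were called higher in LYC, with log2 fold changes of 1.55 and 1.07, and the other 6 were not called. In the limma test described below, the adjusted p of Cps1 was 0.0573. The 6 bile duct markers summed to 15.4 to 25.1 RPKM in HFD and 2.89 to 9.25 RPKM in LYC. All of them had too few reads for the test described below. Krt19, Krt7 and Epcam had 6, 16 and 10 reads over all libraries and no reads in LYC. Their HFD means of 0.43, 1.17 and 0.412 RPKM lay below the level of a single read on 1 kb in LYC. Sox9 and Spp1 had reads in every library, and Cftr had 1 read, in HFD2. Spp1 made up most of the sum in each library, at 10.3 to 20.3 RPKM in HFD and 1.67 to 8.48 RPKM in LYC. The sums of the 6 macrophage markers (109 to 149 RPKM in HFD, 98.9 to 161 RPKM in LYC), of the 6 sinusoidal endothelial markers (67.4 to 99.9 and 41.3 to 126 RPKM), of the 6 stellate cell markers (83 to 159 and 80.8 to 122 RPKM) and of the 5 erythroid markers (632 to 1433 and 847 to 989 RPKM) overlapped between the groups. None of the tested markers of those 4 lists was called. Lymphocyte markers reached at most 2.16 RPKM in sum in any library. The part of cell composition and depth in the differences below was not tested, and in such bulk libraries fewer cells of a type and fewer footprints per cell cannot be told apart.

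A second deposited table is labelled RNA and holds counts. Its columns were not independent of the Ribo-seq libraries. Among genes with at least 20 reads in both, 83.9% to 88.4% had counts within 10% of the reads in the closest Ribo-seq library, against at most 22.1% for any other pairing. The closest libraries were LYC1, LYC2 and LYC3 for the columns of the same names, but HFD2, HFD3 and HFD1 for the columns named HFD1, HFD2 and HFD3. The table was therefore used only as another count of the same reads, which shows how they were shared out among similar genes. No ratio of footprints to RNA was formed. Whether these reads are footprints or RNA was not tested, and the word footprints follows the label of the Ribo-seq table.

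Similar genes are the rule in the UGT family. At the Ugt1a locus, chr1:88055411-88220002 (mm10, plus strand), alternative first exons are spliced to the same downstream exons. The sequences around that junction are shown because the genes cannot be told apart downstream of it, and some pairs not just upstream of it either. Each line holds the last 30 coding bases of a gene's own exon in lower case and the first 30 bases of the shared exon, chr1:88215044-88215073, in capitals (RefSeq annotation of GRCm38.p6).
Ugt1a1: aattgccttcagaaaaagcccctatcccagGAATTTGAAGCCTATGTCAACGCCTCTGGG
Ugt1a10: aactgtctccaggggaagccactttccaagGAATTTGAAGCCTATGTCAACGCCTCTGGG
Ugt1a2: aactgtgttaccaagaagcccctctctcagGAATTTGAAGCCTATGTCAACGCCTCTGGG
Ugt1a5: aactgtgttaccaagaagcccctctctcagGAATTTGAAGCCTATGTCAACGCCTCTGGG
Ugt1a6a: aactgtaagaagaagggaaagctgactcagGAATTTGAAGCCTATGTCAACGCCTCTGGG
Ugt1a6b: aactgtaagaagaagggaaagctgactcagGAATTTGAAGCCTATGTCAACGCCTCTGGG
Ugt1a7c: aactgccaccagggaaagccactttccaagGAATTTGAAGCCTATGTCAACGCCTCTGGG
Ugt1a9: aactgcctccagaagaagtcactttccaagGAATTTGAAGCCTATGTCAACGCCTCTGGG
Of all 28-base stretches of the transcripts, about the length of a footprint, 71.6% of Ugt1a1 and 90.1% of Ugt1a6a were also found in another UGT or SULT transcript, and the other 6 Ugt1a genes lay between these. The own-exon ends of Ugt1a2 and Ugt1a5 are identical over the bases shown, as are those of Ugt1a6a and Ugt1a6b.

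The same arrangement holds for Ugt2a1 and Ugt2a2 on chr5 (minus strand), which share 68.6% and 69.5% of their 28-base stretches. Capitals again mark the start of the shared exon, chr5:87465527-87465556.
Ugt2a1: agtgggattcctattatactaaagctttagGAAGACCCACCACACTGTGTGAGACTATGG
Ugt2a2: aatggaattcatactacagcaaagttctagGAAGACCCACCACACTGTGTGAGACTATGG
The own exons of Ugt2a1 and Ugt2a2 end at chr5:87486029-87486058 and chr5:87474390-87474419. The lower case parts differ at several positions, so a footprint that lies upstream of the junction can tell Ugt2a1 from Ugt2a2, and a footprint downstream of it cannot.

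Ugt2b5, Ugt2b37 and Ugt2b38 are separate genes with nearly the same coding sequence. Over 1593 coding bases, Ugt2b37 was 94.7% and Ugt2b38 97.0% identical to Ugt2b5, with 85 and 47 bases different. Their first 90 coding bases are printed with a base that differs from Ugt2b5 in capitals. They lie at chr5:87140217-87140306, chr5:87254681-87254770 and chr5:87424082-87424171, all on the minus strand.
Ugt2b5: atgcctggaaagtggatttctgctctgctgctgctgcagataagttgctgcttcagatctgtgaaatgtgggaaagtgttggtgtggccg
Ugt2b37: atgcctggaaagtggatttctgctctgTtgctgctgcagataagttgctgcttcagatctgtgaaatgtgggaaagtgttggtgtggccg
Ugt2b38: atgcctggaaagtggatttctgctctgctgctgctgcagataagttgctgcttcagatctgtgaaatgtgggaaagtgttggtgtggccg
Within this window Ugt2b38 did not differ from Ugt2b5 and Ugt2b37 differed at 1 base. The SULT genes with reads were easier to tell apart: Sult1a1, Sult1b1, Sult1d1 and Sult1c2 shared no 28-base stretch with another of the 41 genes, and Sult2a8 shared 0.142% of its stretches. The other Sult2a genes, from Sult2a1 to Sult2a6, shared 16.6% to 77.3%.

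Footprints were found on 29 of the 41 genes, all 20 UGT and 9 of 21 SULT. Of the 29, 23 had reads in both groups, 6 had reads in HFD alone (Ugt1a7c, Ugt1a10, Ugt2a1, Sult2a4, Sult2a7 and Sult2b1), and none had reads in LYC alone. For 5 of the 6, the HFD mean lay below the level that 3 reads over all LYC libraries would have given, so their absence in LYC was within what this depth can miss. The exception was Ugt1a10, at 1.96 RPKM in HFD beside a level of 0.828 RPKM for 3 reads in LYC. At the HFD mean, 7.09 reads of Ugt1a10 would have been counted in LYC, and the Ribo-seq table held none. The second table, another count of the same reads, held 10, 5 and 21 reads of Ugt1a10 in LYC1, LYC2 and LYC3. Its absence in LYC was thus seen in the Ribo-seq table alone. Whether that absence came from the assignment of shared reads was not tested. The 12 SULT genes with no read in the Ribo-seq table were Sult1c1, Sult1e1, Sult2a1, Sult2a2, Sult2a3, Sult2a5, Sult2a6, Sult3a1, Sult3a2, Sult4a1, Sult6b1 and Sult6b2. Sult1e1 is the estrogen sulfotransferase, Sult2a1 and Sult3a1 are known as genes of female liver in mice, and Sult4a1 is a gene of the brain.

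**Figure D1:**
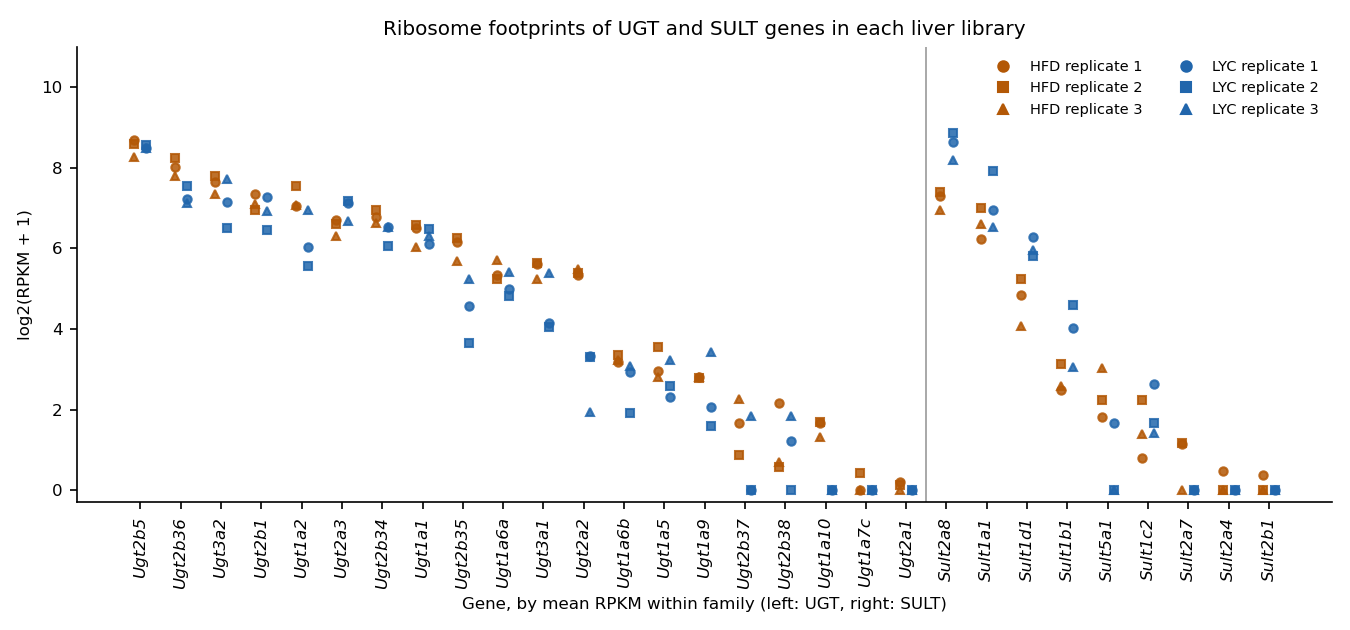
Level of each of the 29 genes with reads, as log2(RPKM + 1) on the vertical axis, in the 3 HFD libraries (orange) and the 3 LYC libraries (blue). Marker shapes stand for replicates 1, 2 and 3, and genes are ordered by mean RPKM within UGT (left) and SULT (right). Ugt2b5 had the highest UGT level, and the Sult2a8 points of LYC lie above those of HFD.

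The UGT footprints were spread over many genes and the SULT footprints over few. Summed over its 20 genes, the UGT family stood at 1623 ± 187 RPKM in HFD and 1266 ± 108 RPKM in LYC (SD, n = 3), as deposited. With the TMM factors described below, the groups overlapped and the log2 fold change of the UGT sum was -0.07. Ugt2b5 alone held 21.7% to 24.5% of that sum in HFD and 26.0% to 32.8% in LYC, and Ugt2b36 held 15.2% to 17.0% and 10.0% to 16.0%. Summed over its 21 genes, the SULT family stood at 288 ± 53.4 RPKM in HFD and 621 ± 165 RPKM in LYC (SD, n = 3). The 3 LYC sums, 624, 785 and 455 RPKM, all lay above the 3 HFD sums, 268, 349 and 248 RPKM. Sult2a8 held 48.4% to 58.2% of the SULT sum in HFD and 59.2% to 64.3% in LYC, and Sult1a1 held 27.7% to 38.7% and 19.8% to 30.5%.

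**Figure D2:**
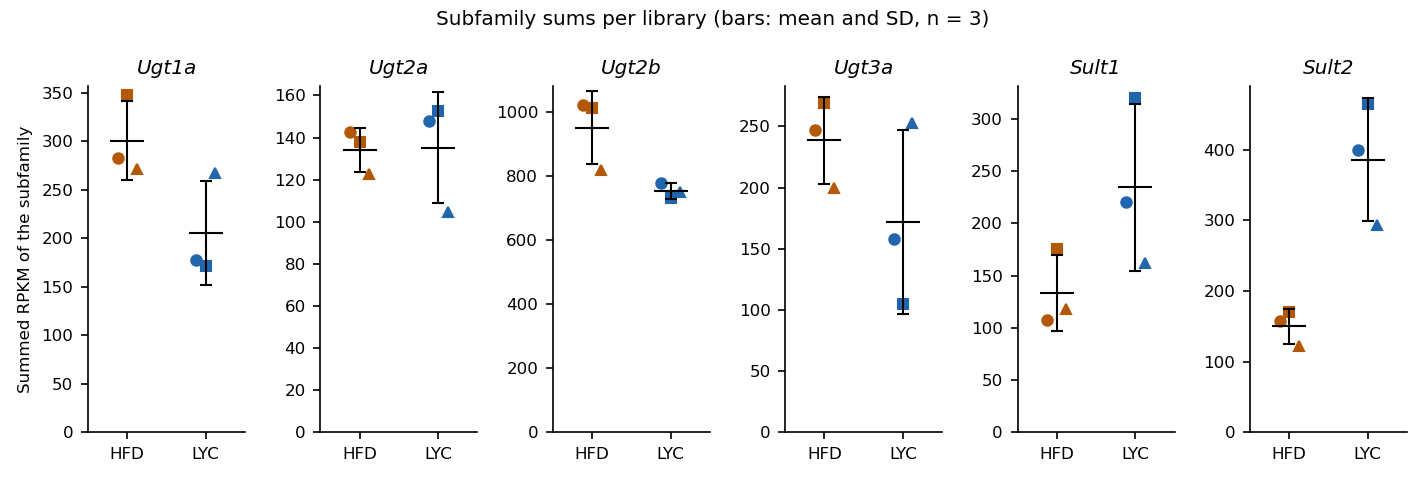
Summed RPKM of 6 subfamilies in each library on the vertical axis of each panel, with HFD (orange) and LYC (blue) on the horizontal axis, replicates as circle, square and triangle, and mean ± SD as black bars (n = 3). Sult2 stood at 150 ± 24.8 RPKM in HFD and 386 ± 86.8 RPKM in LYC without overlap, and Ugt2a at 134 ± 10.5 and 135 ± 26.5 RPKM.

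The groups were compared gene by gene with limma, two-sided, on log2(RPKM + 1) after RPKM had been divided by the library's TMM factor, a scaling that trims genes with extreme ratios. A gene was called at a log2 fold change beyond 1 and an unadjusted p below 0.01. The pseudocount of 1 understates the change of low genes. Of 5796 genes with enough reads, 396 (6.83%) were called higher in LYC and 372 (6.42%) lower, and the median over all of them was -0.11 on the log2 scale. Among the members, 19 had enough reads, 15 UGT and 4 SULT. Of these, 3 were called higher, all SULT, and 1 was called lower, a UGT. Among the called genes, Sult1b1 reached the filter's level in LYC but not in every HFD library. Ugt2a2 reached it in HFD but not in every LYC library. Each of these was thus tested through the group where it was higher, which limits its call. The median log2 fold change was -0.18 over the 15 UGT and 1.50 over the 4 SULT. With RPKM as deposited, without TMM factors, the median of all genes was -0.36, and the calls were split into 235 higher and 645 lower. The UGT and SULT medians were then -0.44 and 1.23. With TMM factors computed over all genes, the calls were split into 312 higher and 478 lower. For 8 of the 19 members no HFD library lay within the range of LYC or the reverse, beside 37.4% of all tested genes. After TMM factors this held for 7 of the 19, beside 37.7%.

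**Figure D3:**
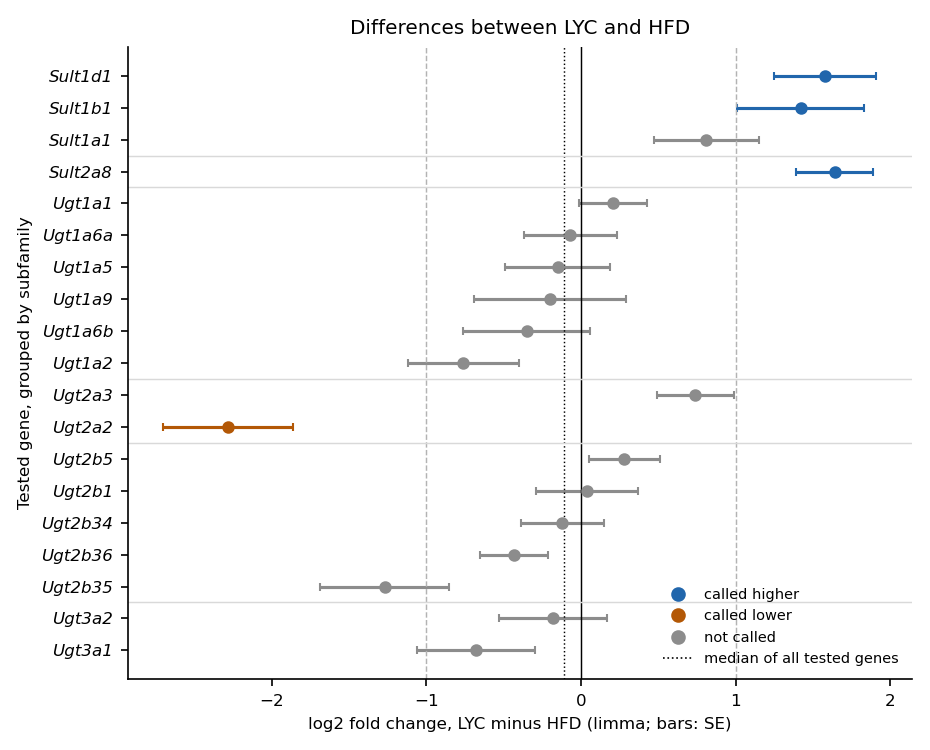
Log2 fold change of LYC against HFD (horizontal axis, on the log2(RPKM + 1) scale) for the 19 tested genes, grouped by subfamily, with bars for the SE from limma. Blue marks genes called higher, orange the gene called lower and grey the rest, dashed lines mark -1 and 1, and the dotted line marks the median of all tested genes at -0.11. Sult2a8, Sult1d1 and Sult1b1 lie to the right at 1.64, 1.58 and 1.42, and Ugt2a2 to the left at -2.28.

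Sult2a8, a bile acid sulfotransferase of mouse liver, had the highest SULT level in each library and the smallest p of the 19 tested members. Its levels were 156, 169 and 122 RPKM in HFD (891, 1559 and 214 reads) and 400, 465 and 293 RPKM in LYC (331, 303 and 253 reads). The lowest LYC library was above the highest HFD library. The mean was 2.59 times higher in LYC, 386 ± 86.8 against 149 ± 24.0 RPKM (SD, n = 3). The log2 fold change was 1.64 ± 0.25 (SE), with an adjusted p = 0.00669 in limma over all tested genes. Sult2a8 kept its call under each of the 17 alternatives tried.

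The other Sult2 genes, which act on steroids and bile acids, were almost silent. Sult2a7 had 8 reads in all, in HFD1 and HFD2, Sult2a4 had 1 read in HFD1, and Sult2b1, the cholesterol sulfotransferase, had 1 read in HFD1. Sult2a8 therefore stood for nearly the whole Sult2 level.

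Sult1d1, which sulfates catecholamines and other small amines and phenols, rose in LYC. Its levels were 27.7, 36.8 and 16.0 RPKM in HFD (181, 388 and 32 reads) and 77.3, 55.1 and 61.8 RPKM in LYC (73, 41 and 61 reads), without overlap. The mean was 2.41 times higher in LYC, with a log2 fold change of 1.58 ± 0.33 (SE). The adjusted p of limma was 0.0203. The call held under 16 of 17 alternatives and was lost at a p limit of 0.001.

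Sult1b1, which sulfates thyroid hormones and phenols, had few reads. It stood at 4.59, 7.74 and 5.00 RPKM in HFD (33, 90 and 11 reads) and 15.4, 23.1 and 7.36 RPKM in LYC (16, 19 and 8 reads). LYC3 lay below HFD2, so the groups overlapped, whereas after TMM factors LYC3 at 7.98 lay above HFD2 at 6.13. The log2 fold change was 1.42 ± 0.41 (SE). The unadjusted p passed its limit of 0.01, but the adjusted p = 0.0600 in limma was above 0.05. The call was lost without TMM factors, with TMM factors over all genes (1.29 on the log2 scale), without the filter on low genes, at a p limit of 0.001 and when any single library other than LYC3 was left out. It held under 8 of the 17 alternatives.

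Sult1a1, the main phenol sulfotransferase, was not called. It stood at 74.2, 127 and 95.9 RPKM in HFD (258, 712 and 102 reads) and 123, 240 and 91.4 RPKM in LYC (62, 95 and 48 reads). As deposited, LYC2 was the highest of the 6 libraries, and LYC1 and LYC3 lay within the range of HFD. After TMM factors LYC1 at 154 lay above the HFD libraries, at 71.4 to 100, and LYC3 at 99 lay within their range. The log2 fold change was 0.81. It was 1.11 without LYC3, past the limits of a call, and 0.50 without LYC2.

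The remaining SULT genes with reads were too low for the fit. Sult1c2 had 29 reads in HFD and 5 in LYC. Sult5a1 was seen with 8, 19 and 7 reads in HFD1 to HFD3 and with 1, 0 and 0 reads in LYC1 to LYC3. Its levels of 2.53, 3.72 and 7.23 RPKM in HFD lay above 2.19 RPKM in LYC1 and 0 in LYC2 and LYC3. The two-sided exact permutation test of Sult5a1 gave p = 0.1, the smallest that 3 against 3 libraries allow, and that of Sult1c2 gave p = 0.5.

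Among UGT genes, Ugt2a2 was lower in LYC. Its levels were 39.3, 40.6 and 43.9 RPKM in HFD (272, 454 and 93 reads) and 9.0, 8.87 and 2.87 RPKM in LYC (9, 7 and 3 reads). The HFD libraries lay close together and far above LYC. The mean was 5.97 times higher in HFD, 41.3 ± 2.38 against 6.91 ± 3.50 RPKM (SD, n = 3). The log2 fold change was -2.28 ± 0.42 (SE), with an adjusted p = 0.0134 in limma, and the call held under each of the 17 alternatives. Ugt2a2 went from 2.30% to 3.11% of the UGT sum in HFD to 0.209% to 0.765% in LYC.

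Its overlapping partner Ugt2a1, an enzyme of the olfactory epithelium, had 2 reads in the Ribo-seq table and 208 in the second table, where Ugt2a2 had 245. The assignment between Ugt2a1 and Ugt2a2 was thus uncertain. The pair as a whole also differed, with 840 reads in the Ribo-seq table and 453 in the second. All UGT genes together had 35946 and 36816. Where the other reads of the pair were counted was not tested. The pair stood lower in LYC in either count of these same reads. Summed over HFD1, HFD2 and HFD3, Ugt2a1 and Ugt2a2 held 273, 455 and 93 reads of the Ribo-seq table and 150, 244 and 49 of the matching columns of the second table. In LYC the sums were 9, 7 and 3 reads against 5, 3 and 2. In the edgeR fit of the second table, Ugt2a1 stood at -4.36 (adjusted p = 0.00265) and Ugt2a2 at -1.57 (adjusted p = 0.0507). Both were tested there through HFD, where they were higher, which limits these values. Ugt2a3, a further enzyme of the subfamily, stood at 93.0 ± 12.8 RPKM in HFD and 128 ± 23.0 RPKM in LYC (SD, n = 3). Its log2 fold change of 0.74 was not called.

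The Ugt2b genes, whose products act on steroids, bile acids and drugs, formed the largest group. In sum they stood at 950 ± 114 RPKM in HFD and 753 ± 25 RPKM in LYC (SD, n = 3). These sums are without TMM factors, where the median of all genes was -0.36 on the log2 scale. None of the 5 tested was called in limma. Ugt2b5 stood at 414, 387 and 306 RPKM in HFD (2137, 3230 and 483 reads) and 358, 380 and 358 RPKM in LYC (267, 224 and 279 reads), with a log2 fold change of 0.28 that was 0.00 without TMM factors. As deposited, the LYC libraries of Ugt2b5 lay within the range of HFD. After TMM factors LYC1 at 448 lay above the HFD libraries, at 298 to 398. Ugt2b36 stood at 258, 301 and 223 RPKM in HFD (1327, 2501 and 351 reads) and 150, 186 and 138 RPKM in LYC (112, 109 and 107 reads), without overlap, with a log2 fold change of -0.43. Ugt2b34 and Ugt2b1 stood at -0.12 and 0.04.

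Ugt2b35 lay at the edge of a call. It stood at 70.3, 75.8 and 50.7 RPKM in HFD (644, 1122 and 142 reads) and at 22.6, 11.5 and 36.9 RPKM in LYC (30, 12 and 51 reads), without overlap. The log2 fold change was -1.27 ± 0.42 (SE), with an adjusted p = 0.0869 in limma, and the unadjusted p missed its limit of 0.01. Ugt2b35 was called lower under 5 of the 17 alternatives, among them TMM factors over all genes (-1.42) and edgeR on the recovered reads (-1.14). Its log2 fold change was -1.66 without LYC3 and -0.77 without LYC2.

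Ugt2b37 and Ugt2b38 had 26 reads each in the Ribo-seq table and 822 and 1766 in the second table, where Ugt2b5 had 4472 reads in place of 6620. The sum of Ugt2b5, Ugt2b37 and Ugt2b38 was alike in both tables, 6672 against 7060 reads. As a sum they stood at 373 ± 56.4 RPKM in HFD and 367 ± 11.5 RPKM in LYC (SD, n = 3), so their level is better read as that of the trio than of Ugt2b5.

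The Ugt1a genes, among them Ugt1a1, the enzyme that conjugates bilirubin, were not called. Summed over the locus they stood at 283, 347 and 272 RPKM in HFD and 178, 172 and 267 RPKM in LYC, with a log2 fold change of -0.28 ± 0.25 (SE). In this sum LYC3 lay just under HFD3 as deposited, but above the HFD libraries after TMM factors, at 290 against 265 to 275, so the groups were not separate. Ugt1a1 stood at 83.1 ± 16.0 RPKM in HFD and 78.4 ± 10.2 RPKM in LYC (SD, n = 3), with a log2 fold change of 0.21 that was -0.07 without TMM factors. Ugt1a2 stood at 151 ± 31.2 and 77.6 ± 39.4 RPKM (SD, n = 3). Its groups did not overlap as deposited but did after TMM factors, with LYC3 at 132 between HFD3 at 130 and HFD2 at 148. The log2 fold change of Ugt1a2 was -0.76, and it was -1.14 without LYC3, past the limits of a call, and -0.37 without LYC2. Ugt1a6a and Ugt1a6b, enzymes for planar phenols, stood at -0.07 and -0.35, and Ugt1a9 and Ugt1a5 at -0.20 and -0.15.

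Levels of single Ugt1a genes depended on how shared reads were assigned. Ugt1a2 had 4430 reads in the Ribo-seq table and 624 in the second table, whereas Ugt1a10 had 55 and 572, Ugt1a7c 5 and 548, and Ugt1a6b 175 and 1195. The whole locus had 8832 and 9065 reads, so the reads moved between its genes. In the second table all 8 Ugt1a genes were tested by edgeR and none was called, with log2 fold changes of -0.66 to 0.03.

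Ugt3a1 and Ugt3a2, whose human counterparts use sugars other than glucuronic acid, were not called either. Ugt3a2 stood at 199, 220 and 163 RPKM in HFD (1194, 2132 and 298 reads) and 141, 89.3 and 212 RPKM in LYC (122, 61 and 192 reads). As deposited, LYC3 lay within the range of HFD and the other LYC libraries below it. After TMM factors LYC1 at 176 lay within the HFD range of 158 to 192, and LYC3 at 230 above it. The log2 fold change of Ugt3a2 was -0.18. Ugt3a1 stood at 44.6 ± 6.80 and 24.6 ± 14.3 RPKM (SD, n = 3), with a log2 fold change of -0.68, which was -1.11 without LYC3, past the limits of a call, and -0.36 without LYC2. In the second table, where Ugt3a1 had 1566 reads against 913, the value was -0.22.

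**Figure D4:**
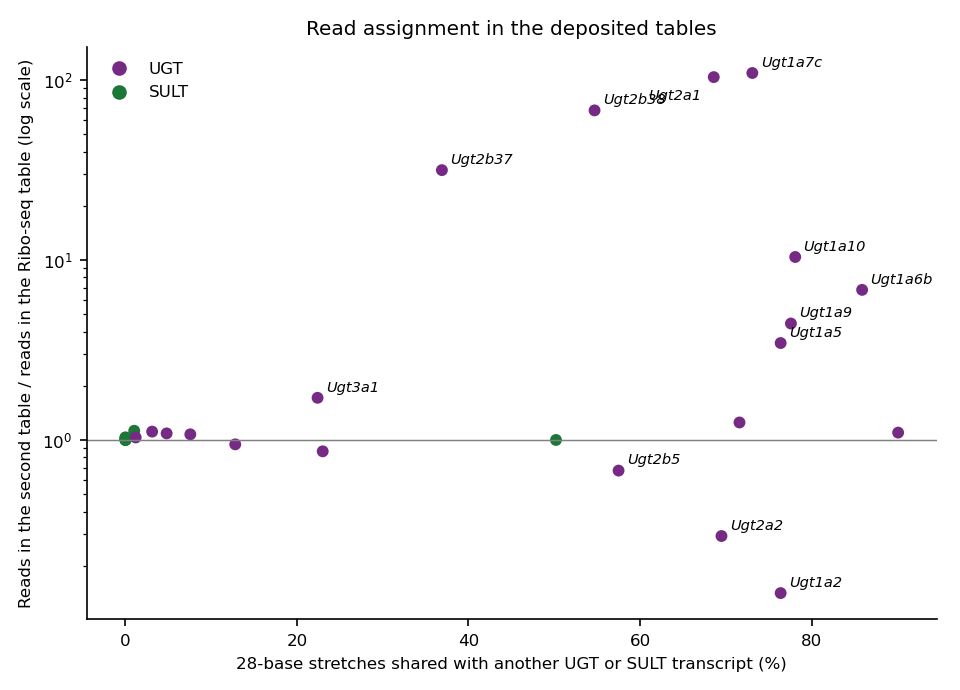
Reads of a gene in the second table divided by its reads in the Ribo-seq table, summed over the 6 libraries (vertical axis, log scale), against the share of its 28-base stretches found in another UGT or SULT transcript (horizontal axis, percent). UGT genes are purple and SULT genes green, each point is a gene with reads in both tables, and genes above 1.5 or below 0.75 are named. SULT genes with reads lie near 1, while Ugt1a7c, Ugt2a1 and Ugt2b38 lie at 110, 104 and 67.9.

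The genes with at least 100 reads were divided by shared sequence, at a limit chosen after the values were seen. Of the 11 genes that shared less than 25% of their stretches, 10 had counts within 15% in the 2 tables, the exception being Ugt3a1 at 1.72. Of the 8 that shared more, 1 did, and the ratios ran from 0.141 to 6.83. Sult2a8, Sult1d1, Sult1b1 and Sult1a1 stood at 1.02, 1.03, 1.03 and 1.02. In the edgeR fit of the second table, where 9.32% of 5921 genes were called higher and 7.33% lower, 24 members were tested. The 3 called higher were Sult2a8 (1.69), Sult1d1 (1.58) and Sult1b1 (1.57), and the 2 called lower were Ugt2a1 and Ugt2a2. Ugt2a1 and Ugt2a2 reached the filter's level there in HFD but not in every LYC library, which limits their calls. As the reads are the same, this fit bears on the counting and is no second measurement of the livers.

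The called genes were partly neighbours. On chr5, 13 of the 41 genes lie between 86889770 and 87591611 (mm10). There the gene Ugt2a1, which overlaps Ugt2a2 (chr5:87459493-87482258, minus strand), is followed after 22455 bases by Sult1b1 (chr5:87513327-87538195), after a further 16454 bases by Sult1d1 (chr5:87554650-87569006), and after 6961 bases by Sult1e1. Ugt2a2 was called lower, Sult1b1 and Sult1d1 were called higher, and Sult1e1 had no reads. Sult2a8 lies on chr7:14410686-14446780 (minus strand), among the other Sult2a genes.

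The promoters of the genes called under most settings are shown, each 250 bases before to 50 bases after the annotated start, since these genes moved together or apart. Capitals mark matches to GTTAAT, a short site of the hepatocyte factor HNF1, to GCGTG, the core of the site of the dioxin receptor AHR, and to AGGTCA, a short nuclear receptor site, each searched on both strands. For Sult2a8, promoters of 2 annotated starts were held, and the first below belongs to chr7:14446538-14446837 and the next to chr7:14438502-14438801. Neither start is the outer end of the gene, chr7:14446780. The promoters of Sult1d1 and Ugt2a2 lie at chr5:87568957-87569256 and chr5:87482209-87482508. All those shown are on the minus strand.
Sult2a8, upstream start: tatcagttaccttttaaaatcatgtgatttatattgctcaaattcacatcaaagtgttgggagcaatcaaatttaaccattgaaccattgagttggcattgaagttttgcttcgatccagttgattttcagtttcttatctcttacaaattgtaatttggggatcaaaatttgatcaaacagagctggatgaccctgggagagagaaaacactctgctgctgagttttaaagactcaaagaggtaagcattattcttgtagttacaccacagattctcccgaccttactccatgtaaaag
Sult2a8, downstream start: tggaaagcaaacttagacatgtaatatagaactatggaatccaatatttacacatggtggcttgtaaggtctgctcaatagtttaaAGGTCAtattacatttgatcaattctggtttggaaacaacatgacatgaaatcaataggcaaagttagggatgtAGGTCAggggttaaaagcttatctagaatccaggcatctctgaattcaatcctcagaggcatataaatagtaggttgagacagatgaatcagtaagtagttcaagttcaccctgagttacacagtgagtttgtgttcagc
Sult1d1: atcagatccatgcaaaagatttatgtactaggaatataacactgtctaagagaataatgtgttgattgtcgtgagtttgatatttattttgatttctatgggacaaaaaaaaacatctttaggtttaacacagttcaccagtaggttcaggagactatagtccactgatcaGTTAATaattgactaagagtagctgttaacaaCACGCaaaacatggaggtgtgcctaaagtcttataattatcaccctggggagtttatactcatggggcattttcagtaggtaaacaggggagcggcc
Ugt2a2: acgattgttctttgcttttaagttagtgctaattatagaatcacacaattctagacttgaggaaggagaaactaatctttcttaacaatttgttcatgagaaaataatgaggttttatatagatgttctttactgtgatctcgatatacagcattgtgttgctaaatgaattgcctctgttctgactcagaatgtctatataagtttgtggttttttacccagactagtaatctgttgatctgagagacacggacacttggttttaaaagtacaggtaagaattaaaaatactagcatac
The HNF1 letters occurred in 13 of the 38 promoters held for 35 of the members, and in 7.10% of all 32851 promoters. These letters were shortened after matches of a longer form had been seen, so the shares are no test of enrichment. Genes that share sequence, such as Sult2a3 to Sult2a6, are also not independent. They were found for Ugt1a1, Ugt1a6a, Ugt1a9, Ugt1a10, Ugt2a3, Ugt3a1, Sult1a1, Sult1d1, Sult3a2 and for Sult2a3 to Sult2a6, of which Sult3a2 and the last 4 had 1 read or none. AGGTCA occurred in 10 of 38 member promoters beside 16.3% of all, and GCGTG in 5 beside 32.4%. Among the promoters shown, Sult1d1 held the HNF1 and AHR letters, the downstream start of Sult2a8 held AGGTCA at 2 places, and Ugt2a2 held none of the 3. A match is a description of the letters.

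Genes that supply and use the conjugates were read from fixed lists, beside 6.83% of all tested genes called higher and 6.42% lower. In the supply of UDP-glucuronate, 1 of 5 tested genes was called higher and none lower. That gene was Ugp2, which makes UDP-glucose, with 127 ± 36.8 RPKM in HFD and 245 ± 9.78 RPKM in LYC (SD, n = 3) and a log2 fold change of 1.27. Ugdh, which oxidises UDP-glucose to UDP-glucuronate, stood at 59.1 ± 12.7 and 71.1 ± 19.6 RPKM and was not called. In the branch from glucuronate to ascorbate none of 4 was called, and Rgn, its most abundant gene, stood at 0.72.

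In the supply and removal of PAPS, 1 of 4 tested genes was called higher and 1 lower. Papss2, which makes PAPS from sulfate and ATP, stood at 30.3 ± 6.18 RPKM in HFD and 59.6 ± 11.9 RPKM in LYC (SD, n = 3), with a log2 fold change of 1.23. The sulfate transporter Slc26a1 stood at 60.5 ± 9.67 and 20.0 ± 7.83 RPKM (SD, n = 3), with -1.32. Papss1, the other PAPS synthase, had 65 reads in all and was not tested.

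None of the 4 tested genes of deconjugation was called, with the glucuronidase Gusb at -1.24. None of the 4 of conjugate efflux was called, with the canalicular pump Abcc2 at -0.28. None of the 5 of conjugate uptake was called, with Slco1b2 at 0.17. Among 13 tested regulators, 1 was called higher, the bile acid receptor Nr1h4, at 30.8 ± 8.37 RPKM in HFD and 62.3 ± 10.6 RPKM in LYC (SD, n = 3) and a log2 fold change of 1.30. The receptors Nr1i2, Nr1i3 and Ahr and the factor Nfe2l2, known to induce conjugating enzymes, stood at -0.04, 0.55, 0.44 and 0.36 and were not called, nor was Hnf4a, the most abundant regulator, at -0.37.

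Of 3 tested genes induced by the same regulators, Cyp1a2 was called lower. It stood at 224 ± 51.8 RPKM in HFD and 75.5 ± 27.2 RPKM in LYC (SD, n = 3), with a log2 fold change of -1.31. Its unadjusted p passed the limit of 0.01, but its adjusted p = 0.0665 in limma was above 0.05. Cyp3a11 stood at -0.03. Among other conjugating enzymes, the nicotinamide methyltransferase Nnmt (2.72) and the glycine acyltransferase Glyat (1.52) were called higher. Of 8 genes known to be high in male liver, 1 was called, Elovl3, lower at -1.83, and Mup20, the most abundant, stood at 0.21. Of 8 genes known to be high in female liver, 1 had enough reads, Acot3 (0.75, not called). Cyp2b9 was not tested. It had 202 reads, all in HFD and most of them in HFD2, at 3.13, 21.4 and 5.75 RPKM in HFD1, HFD2 and HFD3.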

How the data were processed

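The 3 HFD and 3 LYC Ribo-seq libraries of mouse liver were compared. For Ribo-seq the authors deposited RPKM values per gene and library, after cleaning with cutadapt and bowtie2, alignment to GRCm38/mm10 with STAR and quantification with FANSE2. For the table labelled RNA the authors deposited read counts and RPKM by the same steps. Versions, annotation release and filters are not given in the sources used here.

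Reads were recovered from the steps between RPKM values. The gene lengths of the second table gave whole reads (within 0.01) for 70.2% to 71.2% of a library's values above 0, and a length fitted per gene gave those of 4692 genes. Of 25033 rows, 26 carry dates in place of gene names, and 4 with a repeated name were not tested. Genes were kept by filterByExpr on the recovered reads and tested with limma on log2(RPKM / TMM factor + 1), with a mean-variance trend. The planned design did not say which genes the TMM factors use. They were first computed over all genes and then over the kept genes, and the latter was chosen after both results had been seen. This choice changed the calls of Sult1b1 and Ugt2b35. edgeR's quasi-likelihood test on the recovered reads called 489 genes higher and 401 lower. The second table was tested with edgeR on counts. Adjusted p-values are Benjamini-Hochberg values over all tested genes. The SE of the edgeR fit is not printed. The limma and the edgeR fit were tested on simulated data.

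Replicate numbers are from the sample titles. Deviations from the group means correlated at 0.109, 0.029 and 0.00564 between same-numbered libraries, so the numbers were not taken to pair them. The alternatives were other scalings, pseudocounts, filters and p limits, edgeR, DESeq2, a replicate block, removal of a length trend, and leaving out each library in turn. Values in every library are given for called members and for the 3 highest of each family, and the other members by fold change, range or reads. Genes of the supply, transport and regulator lists are named where called or most abundant, and some others, such as Ugdh, Papss1, Cyp2b9 and the 4 inducing factors, were chosen after their values were seen. A result of the list of other conjugating enzymes is not reported here. The members, lists and tests were chosen with earlier results of these data known. Promoter and transcript sequences are from RefSeq (GRCm38.p6, the same build as mm10), where all 41 genes matched. The HNF1 letters searched were shortened from a longer form after its matches had been seen. The tools were limma 3.58.1, edgeR 4.0.16 and DESeq2 1.42.0 in R 4.3.3, with numpy 2.4.6, pandas 2.3.3 and matplotlib 3.10.9.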

Additional observations from a re-analysis of the deposited data

How the results depend on the processing

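Sult2a8 and Ugt2a2 kept their calls under all 17 alternatives and Sult1d1 under 16. The low depth of LYC, 311050 to 412116 reads, limits genes with few reads, and 3 libraries a group limit every p. Without TMM factors the calls were 235 higher and 645 lower, with 2 members lower, and Ugt1a1, Ugt2b1 and Ugt2b5 stood at -0.07, -0.24 and -0.00. With TMM factors over all genes, an alternative added after the data were seen, 2 members were called lower (Ugt2a2 and Ugt2b35) and Ugt2b1 stood at -0.11. A pseudocount of 5 left 227 genes lower, and no filter gave 719 lower, with 2 members. The added one was Ugt1a10, which had reads in LYC in the second table only. edgeR and DESeq2 on the recovered reads each called 2 members lower, with Ugt1a9 at 0.11 and 0.09. With the length trend removed, Ugt1a5, Ugt1a6a and Ugt2b34 stood at 0.02, 0.10 and 0.03. At a p limit of 0.001, 193 genes were higher and 103 lower, with 1 member higher. With libraries left out in turn, 141 to 705 genes and 1 to 4 members were called lower, the 4 (Ugt2a2, Ugt2b35, Ugt1a2 and Ugt3a1) without LYC3. The UGT median then ran from -0.41 to 0.12, above 0 without LYC2. Ugt1a6a ran from -0.28 to 0.14, Ugt1a6b from -0.58 to 0.08, Ugt1a9 from -0.75 to 0.25, Ugt2b1 from -0.24 to 0.34, Ugt2b34 from -0.29 to 0.12 and Ugt3a2 from -0.49 to 0.21. The second table scaled by total counts, of which Lars2 took 6.68% to 15.0% in HFD and 35.9% to 40.3% in LYC, gave 132 genes higher and 2884 lower, with 0 members higher and 16 lower. There DESeq2 called 1 member lower, no filter gave 988 genes lower, and leaving out libraries gave 1 to 3 members lower. The cause of these changes was not tested.

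As the replicate numbers did not pair the libraries, the replicate block is given for completeness: it called 393 genes higher and 351 lower and the same numbers of members, 3 higher and 1 lower. Not every library correlated best with its own number.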
